A study of Mus musculus with 16 samples.

Results

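Club cells of the mouse lung were described from 161 cells, those that the deposited cell table annotates with the subtype Club, out of 80449 cells in all. They made up 0.200% of all cells. The table also annotates 818 ciliated cells, 4025 alveolar type 2 (AT2) cells and 191 alveolar type 1 (AT1) cells, the other epithelial types of the lung, against which the club cells were set. The study dissociated whole lungs of mice, sorted live single cells and sequenced their RNA after split-pool barcoding, in which each cell's transcripts gain a chain of well barcodes. There were 6 groups and 15 samples. With seeded pancreatic ductal adenocarcinoma (PDAC) cells there were 2 samples treated with 6-OHDA, 2 with BIBO3304 and 2 with vehicle. Without PDAC cells there were 3 samples of 6-OHDA, 3 of BIBO3304 and 3 of vehicle. 6-OHDA, a neurotoxin, is taken up by the norepinephrine transporter and damages sympathetic nerve endings, and BIBO3304 blocks the neuropeptide Y receptor NPY1R. Strain, age, dose, the number of mice behind a sample and the line of PDAC cells are not stated in the labels, so p-values here measure the spread between samples. The table marks seeding as IV, which was read as PDAC cells seeded.

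Club cells are secretory cells of the bronchiolar epithelium. They release secretoglobins and other host defence proteins into the airway lining fluid, and they oxidise and conjugate inhaled chemicals with cytochrome P450 and transferase enzymes. They also serve as progenitors that renew themselves and give rise to ciliated cells, and their fate against the ciliated one is set by Notch signalling. The markers used to check the annotation were Scgb1a1, the club cell secretory protein, Scgb3a2, a secretoglobin of the same airways, and Cyp2f2, a cytochrome P450 that activates naphthalene in mouse airways.

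All 3 markers were high in the annotated club cells. Levels are counts per 1000000 transcripts (CPM) of the summed counts of a type in a sample, and the means are over the 12 samples with at least 5 club cells, none of which was a BIBO3304 sample without PDAC cells. Scgb1a1 ran from 17059 CPM in the lowest of these samples over a median of 25246 to 59734 CPM in the highest. It averaged 27904 ± 12433 CPM in club cells (SD, n = 12), 221 ± 524 in ciliated cells (n = 15), 64.1 ± 88.8 in AT2 cells (n = 15) and 34.8 ± 65.6 in AT1 cells (n = 14). Every club sample lay above every ciliated, AT2 and AT1 sample. Among ciliated cells the vehicle-PDAC 2 sample stood apart, with 2097 CPM against 304 CPM in the next sample, and without it the ciliated mean was 86.6 ± 71.4 CPM (n = 14). Scgb3a2 ran from 724 over a median of 1616 to 5416 CPM in club cells and averaged 1982 ± 1236 CPM (n = 12), against 8.58 ± 17.9 CPM in ciliated cells, 2.01 ± 2.32 in AT2 cells and 7.33 ± 21.9 in AT1 cells. Cyp2f2 ran from 801 over a median of 1453 to 2271 CPM and averaged 1498 ± 499.7 CPM (n = 12). Ciliated cells held 248 ± 77.0 CPM of Cyp2f2 (n = 15), AT2 cells 10.1 ± 7.37 and AT1 cells 5.76 ± 21.5. The level of each of the 3 genes was the highest in club cells among all 22 annotated types.

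How the deposited subtypes were assigned is not stated. They were treated as drawn from the genes of these same cells, so the differences between club cells and other types are given as descriptions, with no test. The gene ratios are log2 of the club mean over the highest mean of the 3 other epithelial types, with 10 CPM added to each mean, which understates the change of low genes. By that measure Scgb1a1 stood 6.92 log2 units above the highest other type, Scgb3a2 6.74 and Cyp2f2 2.55, with ciliated cells next in each case.

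**Figure D1:**
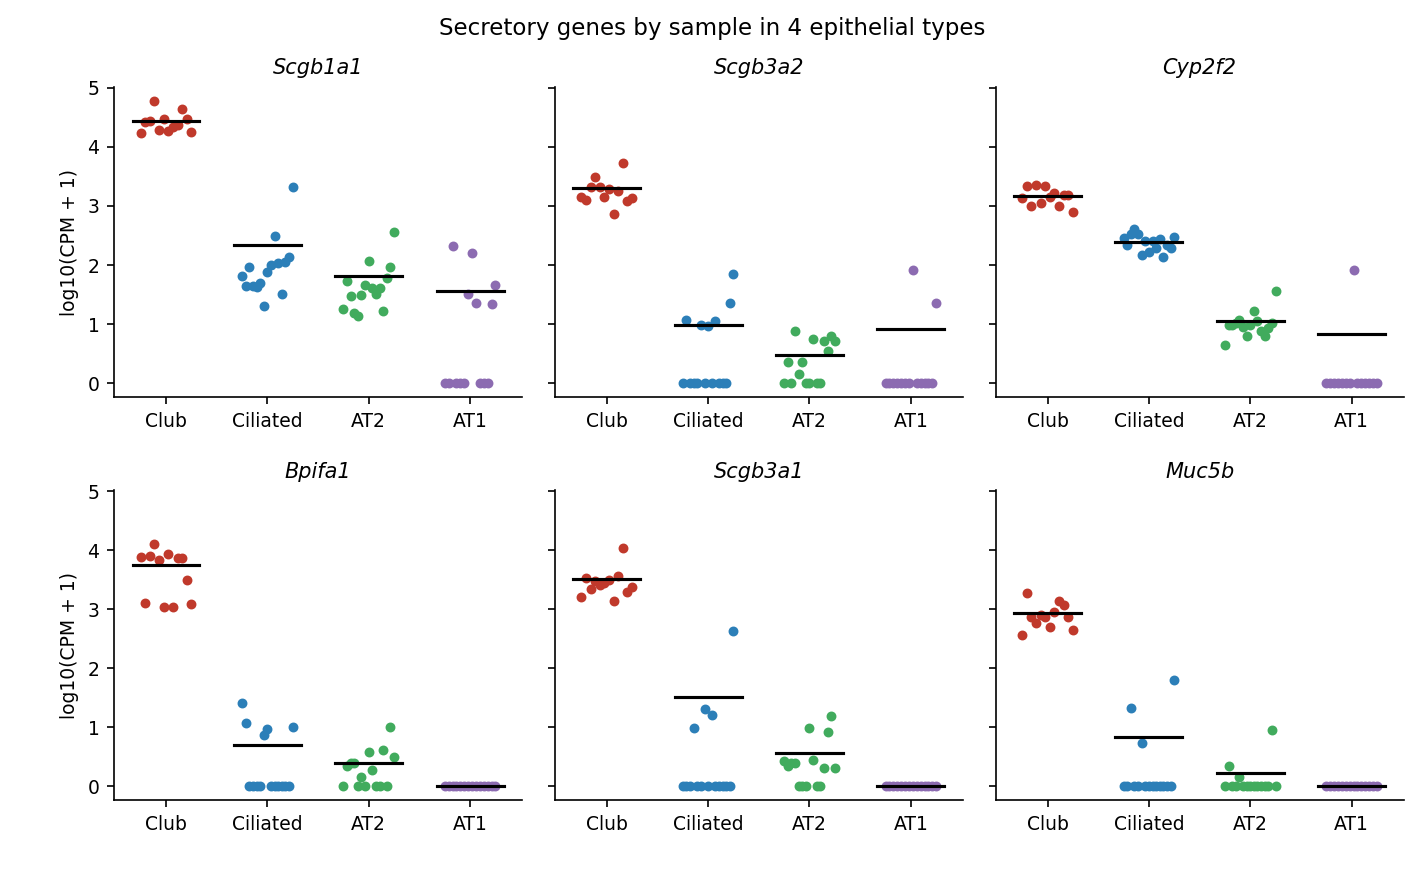
Each point is 1 sample with at least 5 cells of the type, the vertical axis is log10 of CPM + 1, and black lines mark log10 of the mean CPM + 1 for Club, Ciliated, AT2 and AT1 cells. The club points of Scgb1a1, Scgb3a2, Bpifa1, Scgb3a1 and Muc5b lie above all other points, and the ciliated points of Cyp2f2 lie closest to the club points, with a mean of 248 CPM against 1498 CPM.

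Promoter windows are shown for the marker Cyp2f2 and for Bpifa1 and Scgb3a1, the secreted proteins that were found together in the same club cells as described further on. They hold the 250 bases before the RefSeq gene start, on build GRCm38.p6 and the plus strand, from RefSeq. Capitals mark exact matches on either strand to 4 short motifs. A forkhead motif of the FOXA type was searched as TATTTAC. Its variant was searched as TGTTTAC. A motif of the NKX2 homeodomain type was searched as CACTTGA. A core promoter motif of the TATA box type was searched as TATAAA. Of the 21 genes looked up, which were the 20 with the highest club ratios and Cyp2f2, 14 matched the table by symbol.
Cyp2f2, chr7:27119705-27119954: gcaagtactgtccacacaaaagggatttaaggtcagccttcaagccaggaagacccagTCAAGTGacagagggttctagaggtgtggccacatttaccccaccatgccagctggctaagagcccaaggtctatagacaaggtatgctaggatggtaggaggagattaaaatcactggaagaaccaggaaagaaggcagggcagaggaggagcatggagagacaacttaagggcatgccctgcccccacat
Bpifa1, chr2:154142630-154142879: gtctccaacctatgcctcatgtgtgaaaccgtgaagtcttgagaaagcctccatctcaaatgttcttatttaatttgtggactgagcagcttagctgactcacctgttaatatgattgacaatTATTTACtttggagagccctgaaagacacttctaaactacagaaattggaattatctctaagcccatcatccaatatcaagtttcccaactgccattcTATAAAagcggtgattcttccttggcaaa
Scgb3a1, chr11:49663345-49663594: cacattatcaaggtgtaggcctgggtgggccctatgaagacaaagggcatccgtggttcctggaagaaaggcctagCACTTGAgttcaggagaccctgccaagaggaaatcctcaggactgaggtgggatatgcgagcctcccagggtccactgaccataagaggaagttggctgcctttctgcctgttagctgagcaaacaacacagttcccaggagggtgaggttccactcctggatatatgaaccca
The NKX2 type match of Cyp2f2 lies on the other strand and starts 192 bases before the gene start, and that of Scgb3a1 starts 174 bases before it. In Bpifa1 the forkhead match starts 127 bases and the TATA match 29 bases before the gene start. Among the 14 genes with an entry, TATTTAC was found in 3, TGTTTAC in 0, CACTTGA in 2 and TATAAA in 4. Among all 32851 windows of this length in the table, the shares were 2.73% for TATTTAC, 3.17% for TGTTTAC, 2.68% for CACTTGA and 12.4% for TATAAA. A match is a run of letters and not evidence of binding.

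Of 8085 genes with a mean of at least 10 CPM over the 4 epithelial types, 139 (1.72%) were at least 2-fold higher in club cells than in each of the other 3 types, and 88 (1.09%) were at least 2-fold lower than in each. The median gene stood 0.75 log2 units below the highest other type (-0.75), and the median was -0.44 when the 8 abundant loci described below were left out of the totals. The 20 genes with the highest ratios among those at 100 CPM or more in club cells were mostly secreted, and in 17 of them ciliated cells were the next type. The ratios of those 20 stayed above 2-fold under every scaling, pseudocount and left-out sample tried, while Krt15, Gabrp, Wdr72, Mgat3, Reg3g and Lgr6 lay below a stricter filter of 50 CPM.

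Antimicrobial and lipid-binding proteins of the airway fluid led the ratios. Bpifa1, a surface-active defence protein of the upper airways, ran from 1084 over a median of 7031 to 12928 CPM in club cells and averaged 5534 ± 3864 CPM (n = 12). It averaged 3.92 ± 6.91 CPM in ciliated cells, 1.51 ± 2.36 in AT2 cells and was at 0 in AT1 cells, which gives a ratio of 8.64. The club samples spread widely, with 7 samples between 6679 and 12928 CPM and 5 between 1084 and 3142 CPM. Each of these values rested on 2 to 9 cells with a Bpifa1 transcript, and the highest, in vehicle 1, on 3 cells. Its relative Bpifb1 averaged 607 ± 462 CPM in club cells, with a range of 40.2 to 1805 CPM, and its ratio was 5.71. Ltf, the iron-binding lactoferrin, ranged from 98.3 over a median of 702 to 2937 CPM in club cells. Its transcripts were at 0 CPM in ciliated and AT1 samples and at 0.616 ± 0.841 CPM in AT2 cells, with a ratio of 6.64. Reg3g, a bactericidal lectin, averaged 183 ± 269 CPM in club cells and lay between 0 and 997 CPM. It was above the highest other type in 9 of 12 samples. Scgb3a1, a secretoglobin of larger airways, ran from 1367 over a median of 2667 to 10751 CPM and averaged 3219 ± 2470 CPM in club cells, against 31.0 ± 108 CPM in ciliated cells, 2.67 ± 4.16 in AT2 cells and 0 in AT1 cells. The vehicle-PDAC 2 ciliated sample again stood apart, with 422 CPM against 19.1 CPM in the next, and the ratio to ciliated cells of 6.30 was 7.98 without it.

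Mucus and transport proteins followed. Muc5b, a gel-forming mucin, averaged 852 ± 439 CPM in club cells, with a range of 367 to 1904 CPM, and 5.83 ± 16.6 CPM in ciliated cells (ratio 5.77). The vehicle-PDAC 2 ciliated sample held 62.9 CPM of Muc5b, against 20.2 CPM in the next, and without it the ciliated mean was 1.75 ± 5.43 CPM (n = 14) and the ratio to ciliated cells 6.26. Pigr, the receptor that carries polymeric immunoglobulins across the epithelium, averaged 380 ± 133 CPM in club cells and 17.0 ± 11.9 CPM in ciliated cells (ratio 3.85). Cp, the copper-binding ferroxidase ceruloplasmin, averaged 468 ± 184 CPM in club cells and 70.9 ± 39.0 CPM in ciliated cells (ratio 2.56). In every one of the 12 samples Muc5b, Pigr and Cp were above the highest other type.

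Receptors, enzymes and a keratin made up most of the rest of the 20. Bmpr1b, a receptor for bone morphogenetic proteins, averaged 606 ± 182 CPM in club cells and 46.9 ± 30.1 CPM in ciliated cells (ratio 3.44). Lgr6, a receptor for R-spondins that augments Wnt signalling, averaged 194 ± 140 CPM in club cells and 1.4 ± 3.0 CPM in ciliated cells (ratio 4.16). Gabrp, a GABA-A receptor subunit of epithelia, averaged 130 ± 80.7 CPM in club cells (ratio 3.56). Mgat3, a glycosyltransferase of N-glycan branching, averaged 155 ± 71.5 CPM (ratio 2.86), and Plpp3, a lipid phosphate phosphatase, averaged 200 ± 154 CPM (ratio 2.63, above the next type in 11 of 12 samples). Krt15, a keratin of basal cells, averaged 102 ± 91.7 CPM and was above the highest other type in 10 of 12 samples (ratio 3.35). Itprid1 averaged 276 ± 83.9 CPM (ratio 3.56) and Wdr72 133 ± 50.3 CPM (3.33) in club cells.

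**Figure D2:**
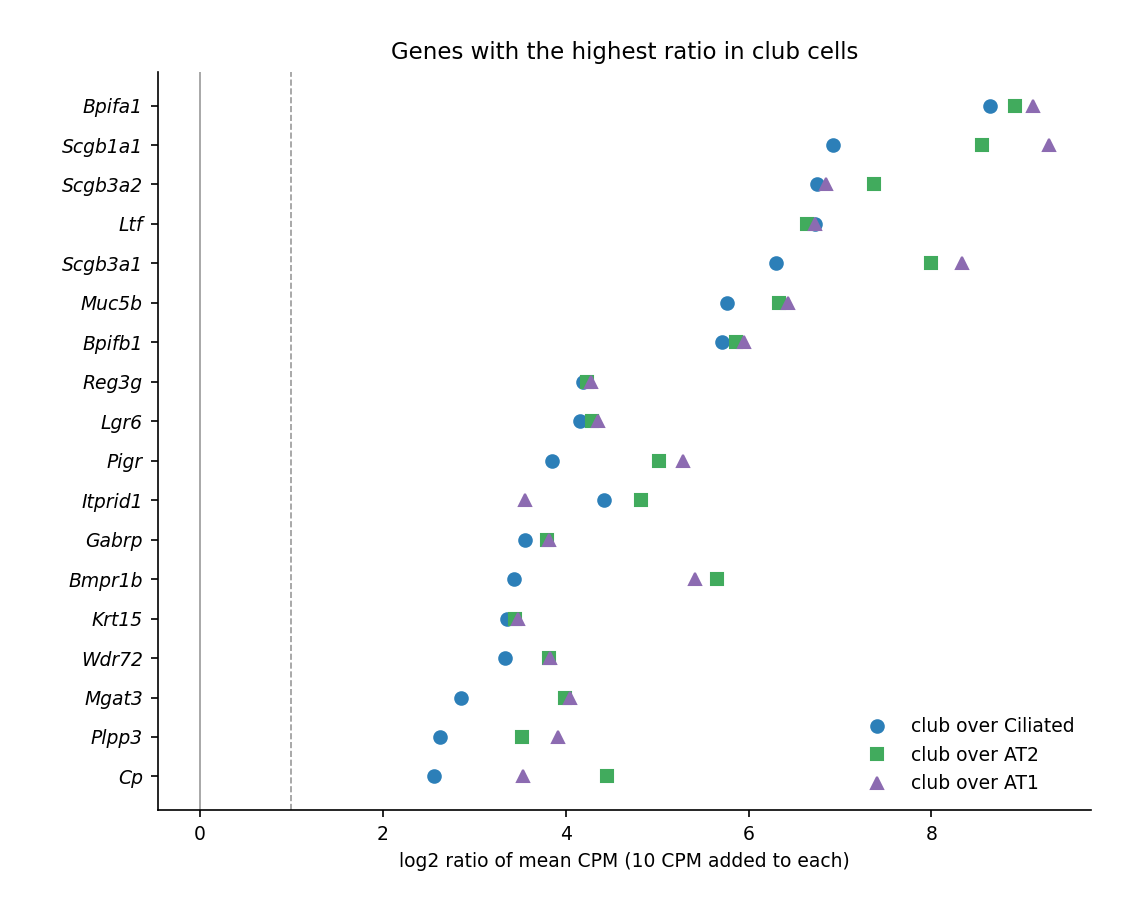
The horizontal axis is log2 of the club mean CPM over the mean CPM of another type, with 10 CPM added to each, for 18 of the 20 genes with the highest ratios. Circles, squares and triangles stand for ciliated, AT2 and AT1 cells, and the dashed line marks 2-fold. The lowest of the 3 symbols of each gene runs from 2.56 for Cp to 8.64 for Bpifa1.

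The gene lists for roles of club cells were read as counts beside the share of all genes. A gene low in all other epithelial types could pass the filter on low values only through its club level, which fixed its call in advance. Of 22 secreted airway proteins, 19 passed the filter on low values and 12 of these were at least 2-fold higher in club cells than in each other type (all genes 1.72%), with a median ratio of 2.50 against -0.75 over all genes. Scgb1a1 and Scgb3a2 among the 12 are markers used to check the annotation. Bpifa1, Bpifb1, Chad, Ltf, Reg3g, Scgb3a1 and Scgb3a2 passed the filter only through club cells. The count of 12 and the median ratio of 2.50 are thus no fair comparison with the values over all genes. Besides those above, the 12 included Wfdc2, a whey acidic protein of airway secretion, at 816 ± 405 CPM (ratio 1.14), Hp, the haemoglobin-binding haptoglobin, at 589 ± 295 CPM (2.51), Lypd2 at 278 ± 202 CPM (2.50) and Chad at 39.4 ± 40.1 CPM (2.21). Surfactant proteins went the other way. Sftpb averaged 546 ± 235 CPM in club cells and 5280 ± 976 CPM in AT2 cells, Sftpa1 543 ± 419 CPM against 4869 ± 755 CPM, and Sftpd 231 ± 105 CPM against 1681 ± 296 CPM. These club levels were still above the ciliated ones in 12 of 12 samples, where ciliated cells had 81.0 ± 44.0 CPM of Sftpb.

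Enzymes of chemical detoxification were the other list with many calls. Of 26 oxidising and reducing enzymes 18 passed the filter and 8 were 2-fold higher in club cells than in each other type, with a median ratio of 0.81, and 12 were so when the 8 abundant loci described below were left out of the totals. Por, the electron donor of microsomal cytochromes P450, averaged 537 ± 171 CPM in club cells and 225 ± 60.4 CPM in ciliated cells (ratio 1.22). Fmo2, a pulmonary flavin monooxygenase, averaged 253 ± 103 CPM in club cells and 37.7 ± 28.8 CPM in ciliated cells (2.46). Aldh3a1 (2.90), Adh7 (2.06), Fmo1 (1.2) and Aldh1a7 (1.17) were also past the line, as was Cyp2f2. Cbr2, a carbonyl reductase, was abundant in club cells at 3243 ± 1108 CPM, against 2113 ± 641 CPM in ciliated cells, 850 ± 302 in AT2 cells and 1.10 ± 4.11 in AT1 cells, so its ratio of 0.62 missed the 2-fold line. Aldh1a1, a retinaldehyde dehydrogenase, averaged 876 ± 363 CPM in club cells and 478 ± 92.8 CPM in ciliated cells (0.86), and Aox3, an aldehyde oxidase, 469 ± 208 CPM in club cells and 273 ± 86.2 CPM in AT2 cells (0.76). Among other cytochromes, Cyp2a5 averaged 151 ± 102 CPM in club cells and 112 ± 61.9 CPM in ciliated cells (ratio 0.40). Cyp4b1 averaged 228 ± 96.2 CPM in club cells and 556 ± 196 CPM in AT1 cells. Cyp2s1 averaged 14.2 ± 15.7 CPM in club cells and 671 ± 118 CPM in ciliated cells, and Cyp2b10 83.3 ± 64.6 CPM in club cells and 1059 ± 383 CPM in AT1 cells.

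Of 26 conjugating and antioxidant enzymes 21 passed the filter and 6 were 2-fold higher than in each other type, with a median ratio of -0.38. These were the glutathione transferases Gsta3 (2.14), Gsto1 (1.87), Gsta4 (1.14) and Gstm2 (1.11), the microsomal transferase Mgst1 (1.38) and the sulfotransferase Sult1d1 (1.96). Mgst1 averaged 411 ± 189 CPM in club cells and 152 ± 38.1 CPM in AT2 cells. Some of these calls lay close to the line. With TMM scaling Wfdc2, Aldh1a7 and Mgst1 were not called, without cells with other-class markers Chad, Aldh1a7 and Gstm2 were not, and without cells lacking Scgb1a1 Gstm2 was not. Ces1d, a carboxylesterase, was at 453 ± 197 CPM in club cells and 463 ± 126 CPM in ciliated cells and was higher in club cells in 7 of 12 samples. Nfe2l2, the regulator of the antioxidant response, averaged 299 ± 118 CPM in club cells and 368 ± 110 CPM in AT2 cells, and Gclc, which limits glutathione synthesis, 285 ± 143 CPM against 487 ± 143 CPM.

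The remaining lists held few genes past the 2-fold line. Among 14 of 18 mucins and granule genes that passed the filter, Muc16, Muc5b and Pigr were higher than in each other type. Among 17 of 20 ion and water transport genes only Aqp3, a glycerol and water channel, was (ratio 2.47). Once the club cells that lack Scgb1a1 were left out it no longer passed the filter on low values and was not compared, and 4 of the list were with the 8 loci out of the totals. Slc12a2, the sodium, potassium and chloride cotransporter of secretion, averaged 518 ± 168 CPM in club cells and 361 ± 59.1 CPM in AT2 cells (0.51). Among 8 of 17 Notch pathway genes, Notch3 (1.77) was higher at 39.0 ± 33.4 CPM, and Notch2 averaged 232 ± 84.7 CPM in club cells and 193 ± 108 CPM in AT1 cells (0.25). Of 21 of 24 lung transcription factors none was 2-fold higher, while Foxa2 and Gata6 were lower than in each other type, with 6.76 ± 10.8 and 8.96 ± 16.9 CPM in club cells. Sox2, a factor of the conducting airway, averaged 43.4 ± 35.2 CPM in club cells and 33.1 ± 12.9 CPM in ciliated cells, against 0.189 ± 0.430 CPM in AT2 cells and 0 in AT1 cells. Nkx2-1 averaged 43.5 ± 38.4 CPM in club cells and 120 ± 32.3 CPM in AT2 cells. Of 13 of 28 immune signalling genes, complement C3 was higher at 186 ± 96.3 CPM, against 83.7 ± 22.9 CPM in AT2 cells (ratio 1.06), a call that was lost under TMM scaling. Of 15 of 19 adhesion and keratin genes Krt15 was higher and Cldn18 lower. Of 23 of 25 early response, heat shock and clock genes and of 3 of 12 proliferation genes, 0 were past the line. Of the 12 proliferation genes, Cdk1, Ccnb1, Birc5, Mcm2, Mcm5 and Rrm2 had no transcript in the 161 club cells. Ccnb2 and Cenpf had one in 1 cell each, and Mki67 in 14 cells, all counted without thinning. Among cells thinned to a common depth, Mki67 was found in 2.67% of club, 1.25% of ciliated, 3.25% of AT2 and 1.97% of AT1 cells.

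**Figure D3:**
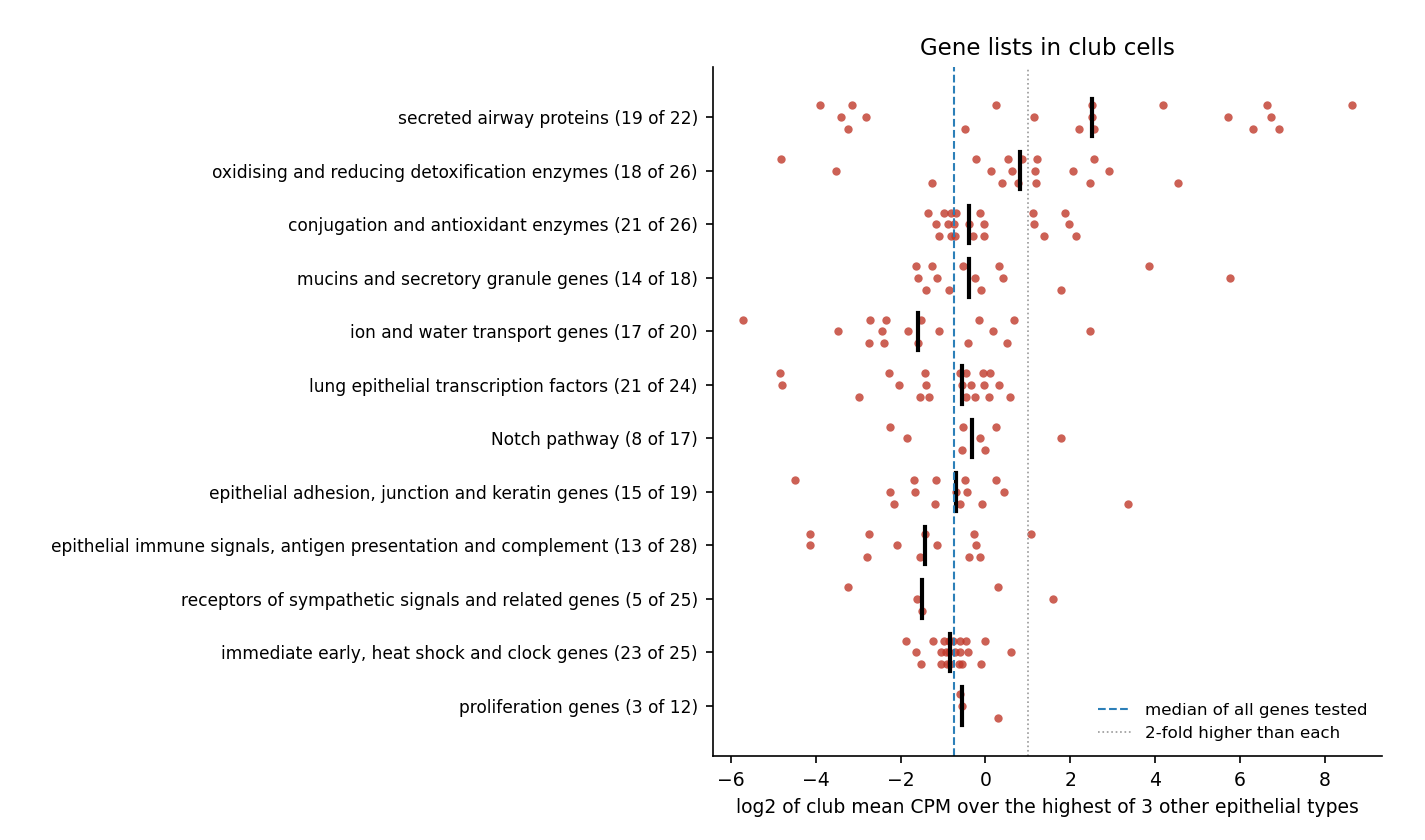
Each point is 1 gene of a list that passed the filter, with the passing and total numbers in parentheses, and the horizontal axis is log2 of the club mean CPM over the highest of the 3 other types. Bars are list medians, from 2.50 for secreted airway proteins to -1.60 for ion and water transport, the dashed line is the median of all genes (-0.75) and the dotted line is 2-fold. Points include genes that passed the filter only through club cells, so a list median is no fair comparison with that of all genes.

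A further list held receptors for the signals that the treatments address and related genes. Of its 25 genes, 15 had 0 transcripts in the 161 club cells. The share of all genes at 0 in these cells was not taken, so the count stands without a comparison. Among them were Npy1r, the target of BIBO3304, Npy, Npy2r, Npy4r and Npy5r, the adrenergic receptors Adra1a, Adra1b, Adra1d, Adra2a, Adra2b, Adra2c and Adrb3, the norepinephrine transporter Slc6a2, and the catecholamine synthesis enzymes Th and Dbh. A count of 0 over 775581 club transcripts allows up to 3.87 CPM, and 0 of 161 cells allows a share of up to 1.86% of cells with a transcript, each taken as 3 counts of the total and for counting error only. Npy1r was highest in smooth muscle cells and pericytes, at 40.9 ± 33.2 CPM (n = 15), of the 22 types. Its absence was not particular to club cells, with 0 of 818 ciliated, 3 of 4025 AT2 and 0 of 191 AT1 cells. Npy was at 0 in these 3 types as well. Adra1a was found in 18 ciliated, 44 AT2 and 6 AT1 cells, Slc6a2 in 6, 17 and 0, and Adra1b in 6, 3 and 0. Adrb1 was found in 3 club cells, at 8.38 ± 25.9 CPM, and Dpp4, a protease that cleaves neuropeptide Y, in 8 club cells at 10.0 ± 16.1 CPM, against 180 ± 43.9 CPM in AT2 cells. Receptors of other transmitters varied, with Chrm3, Cckar and Vipr1 found in more club cells than Dpp4, and Adora2b, Chrm2, P2ry2 and Chrm1 in fewer. Chrm3, the muscarinic receptor M3, was found in 44 club cells at 86.4 ± 55.2 CPM, against 68.4 ± 92.8 CPM in AT1 cells and 23.1 ± 10.3 CPM in ciliated cells (ratio 0.30). Cckar, the cholecystokinin receptor A, was found in 23 club cells and averaged 42.8 ± 43.2 CPM in club cells and 7.42 ± 27.8 CPM in AT1 cells (ratio 1.60). Club cells were the highest of the 22 types for Cckar. Vipr1, a receptor for vasoactive intestinal peptide, was found in 10 club cells, Adora2b in 5, Chrm2 and P2ry2 in 2 each and Chrm1 in 1.

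Markers of ciliated, AT2 and AT1 cells were low in club cells, while those of mucous and basal cells summed to higher levels than in the other epithelial types. Of 10 goblet and mucous markers 3 passed the filter and all 3, Muc5b, Bpifb1 and Tff2, were 2-fold higher than in each other type, with Foxa3 and Clca1 at 0 in club cells. The list summed to 1541 CPM in club cells, with a range over samples of 835 to 3152 CPM, against 11.1 CPM in ciliated cells, and at least 1 of its genes was found in 37.3% of thinned club cells, against 0.75% of ciliated cells. Of 6 basal markers 2 passed, Krt15 and Aqp3, and both were higher, with Krt14 at 0 in club cells. The basal list summed to 196 CPM in club cells, with a range of 0 to 451 CPM, against 3.28 CPM in ciliated cells, and was found in 18.7% of thinned club cells, against 0.25% of ciliated cells. In AT2 and AT1 cells the goblet list summed to 3.95 and 0 CPM and the basal list to 0.469 and 0 CPM. With sums this low, a goblet or basal gene could pass the filter only through its club level. The 2-fold calls of these genes were thus fixed by the filter and add nothing to the sums. The multiciliated list of 12 genes had a summed level of 505 CPM in club cells, with a range over samples of 180 to 1152 CPM, and 9387 CPM in ciliated cells, and its median ratio was -4.83. Sec14l3 alone gave 460 ± 280 CPM of the club sum. The 11 other ciliated markers had a transcript in 4.0% of club cells thinned to 1000 transcripts, against 95.8% of ciliated, 3.75% of AT2, 17.1% of AT1 and 3.50% of general capillary endothelial cells. The 11 AT2 markers summed to 1721 CPM in club cells and 39238 CPM in AT2 cells. Sftpc had a transcript in 18% of thinned club cells, against 18.2% of ciliated cells, 11.2% of AT1 cells and 11% of capillary endothelial cells. At least 1 of the 11 AT2 markers was found in 58% of thinned club cells, against 32.5% of ciliated, 23.0% of AT1 and 21.5% of capillary endothelial cells, and the part of free RNA in these shares was not tested. The 11 AT1 markers summed to 438 CPM in club cells and 18446 CPM in AT1 cells, with Rtkn2 and Igfbp2 at 0 in club cells. Of the 8 neuroendocrine markers only Syp was detected in club cells, in 2 cells. Of 6 endothelial genes Kdr, a receptor for vascular endothelial growth factor, was 2-fold higher than in each epithelial type (69.1 ± 45.4 CPM, ratio 2.03) while Pecam1 and Cdh5 averaged 17.6 ± 24.0 and 9.01 ± 10.9 CPM. In 63 club cells, counted without thinning, at least 2 of 19 leukocyte, endothelial and fibroblast markers were found, and the part of doublets in these cells was not tested. After thinning, at least 1 endothelial marker was found in 6.67% of club, 8% of ciliated, 4.75% of AT2 and 2.63% of AT1 cells. For fibroblast markers the shares were 14.7%, 14.75%, 9.25% and 9.87% in the same order, and for leukocyte markers 10%, 24.5%, 18% and 13.2%.

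Expression over the 8677 genes compared was most like that of AT2 cells among 21 other types (Spearman correlation of mean levels across genes 0.81), followed by ciliated (0.72) and AT1 cells (0.69). These are descriptions over genes of 1 pool of libraries. The genes whose mean level over the 22 types ran most like that of Scgb1a1, among those at 100 CPM or more in club cells, were Pigr (Pearson r = 0.95 on log2 CPM over 22 types), Scgb3a1 (0.95), Sult1d1 (0.95), Scgb3a2 (0.95) and Wdr72 (0.94). The types share libraries and depth, and no p is attached.

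Club cells differed widely among themselves. Scgb1a1 had a transcript in 124 of 161 cells (77.0%), Scgb3a2 in 103 (64.0%) and Cyp2f2 in 141 (87.6%), at a median of 3693 transcripts per cell. After each of the 150 cells with 1000 or more transcripts was thinned to 1000, with 11 shallower cells left out, the shares were 77.3% for Scgb1a1 (95% exact binomial interval 69.8 to 83.8), 53.3% for Scgb3a2 (45.0 to 61.5) and 68.7% for Cyp2f2 (60.6 to 76.0). In thinned ciliated cells they were 5.75%, 0.50% and 16%, and in thinned capillary endothelial cells, whose median was 1382.5 transcripts before thinning, 2.25%, 0.250% and 0%. All thinned shares of ciliated, AT2 and capillary endothelial cells given here are of 400 cells each, drawn at random from those with 1000 or more transcripts. Those of AT1 cells are of 152 cells. All 3 markers were found together in 96 cells, 2 in 24 cells, 1 in 32 cells and none in 9 cells, and the median depth went with it at 5362, 3612, 1941 and 1197 transcripts. Of 951 genes present in at least 10% of the thinned cells, the 10 with the highest ratio of variance to mean included the secretory genes Scgb1a1 (33.1), Bpifa1 (20.4) and Scgb3a1 (12.9), against a median of 1.13 over all 951. The other 7 were Cdk8 (132.5), Rn18s-rs5 (33.9), Cmss1 (19.4), Lars2 (17.9), Gphn (13), Il31ra (11) and Gm19951 (10.8), which are among the 8 abundant loci. For genes that vary among cells this ratio rises with the mean, so the ranking partly reflects abundance. The thinned means were 192.1 transcripts for Cdk8, 24.7 for Scgb1a1, 3.85 for Bpifa1 and 2.82 for Scgb3a1.

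Secretory genes were not spread evenly over the cells. Scgb3a1 and Muc5b were both found in 62 cells, with Scgb3a1 alone in 2 and Muc5b alone in 5 (Spearman correlation of CPM across the 161 cells 0.88). Bpifa1 and Ltf were found together in 37 of the 54 Bpifa1 cells (0.79), and Bpifa1 and Scgb3a1 in 49 of them (0.74). Bpifa1 and Sftpb did not go together (-0.18), and Scgb1a1 and Trp63, the basal cell factor p63, went opposite ways (-0.44). Correlations across cells partly follow depth and are given as descriptions. In the 150 thinned cells the correlations were 0.61 for Scgb3a1 and Muc5b, 0.74 for Bpifa1 and Ltf and 0.61 for Bpifa1 and Scgb3a1. They were -0.15 for Bpifa1 and Sftpb and -0.34 for Scgb1a1 and Trp63. Of these thinned cells, 55 had Scgb3a1, 43 had Muc5b and 35 had both.

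A split of the 161 cells by Scgb1a1 and Scgb3a1, which was chosen after their values were seen, set out 3 sets with different genes. The first held 64 cells with both genes, from all 15 samples, at a median of 5838.5 transcripts. In these Muc5b was found in 62 cells, Pigr in 55, Lypd2 in 50, Bpifa1 in 49, Bpifb1 in 46, Ltf in 37, Reg3g in 28 and Tff2, a trefoil peptide of mucous cells, in 17. The second held 60 cells with Scgb1a1 and no Scgb3a1, from 14 samples, at a median of 3693.5 transcripts, and here Pigr was found in 19 cells, Lypd2 in 12, Muc5b in 5, Bpifa1 in 5, Ltf in 3, Bpifb1 in 2, Reg3g in 1 and Tff2 in 0. Scgb1a1 itself was at 27200 CPM in the first set and 27644 CPM in the second. The second set had more Sftpb, with 960 CPM in 49 cells against 333 CPM in 41 cells of the first, and more Hp, with 941 CPM in 46 cells against 400 CPM in 51. Nkx2-1 was found in 14 cells of the second set and 4 of the first. Of genes ranked over 1518 by their ratio, and named after their values were seen, Nebl had 800 CPM in 47 cells of the second set and 62.5 CPM in 17 cells of the first, Col23a1 1047 CPM in 44 cells and 74.1 CPM in 17, and Arhgap24 299.7 CPM in 28 cells and 11.6 CPM in 5. Toward the first set went St8sia6, found in 33 cells of the first and 1 of the second, Adcy2, in 35 and 4, Golm1, in 37 and 4, Lgr6, in 37 and 5, and Sult1d1, in 36 and 2. The cell numbers of both sets were counted without thinning, and the first set was deeper. The part of depth in these differences was not tested.

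The third set held 37 cells without a Scgb1a1 transcript, from 11 samples, 12 of them from vehicle 2, at a median of 1673 transcripts against 4742 in the cells with Scgb1a1. Cyp2f2 and Cbr2 were each found in 27 of these 37 cells. Bpifa1, Scgb3a1, Ltf, Muc5b, Bpifb1, Pigr and Reg3g were found in none. Basal cell genes were frequent instead. Krt5 or Trp63 was found in 18 of the 37 cells, against 1 of the 124 with Scgb1a1, and at least 2 of the 6 basal markers in 18, against 3. Krt15 and Aqp3 were each found in 15 of these cells. At a common depth of 1000 transcripts, a basal marker was found in 19 of 29 cells without Scgb1a1 and in 9 of 121 cells with it. The annotated club type held cells with no transcript of its defining marker and with basal markers, and Krt5 and Trp63 were higher in it than in the other 21 types. Cells with either gene came from 9 samples, 6 of the 19 from vehicle 2. Abi3bp (20 of 37 cells against 2 of 124), Cdh13 (22 against 7), Nrg1 (21 against 12) and Apoe (22 against 18), named after their values were seen, were among the genes highest in the cells without Scgb1a1.

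**Figure D4:**
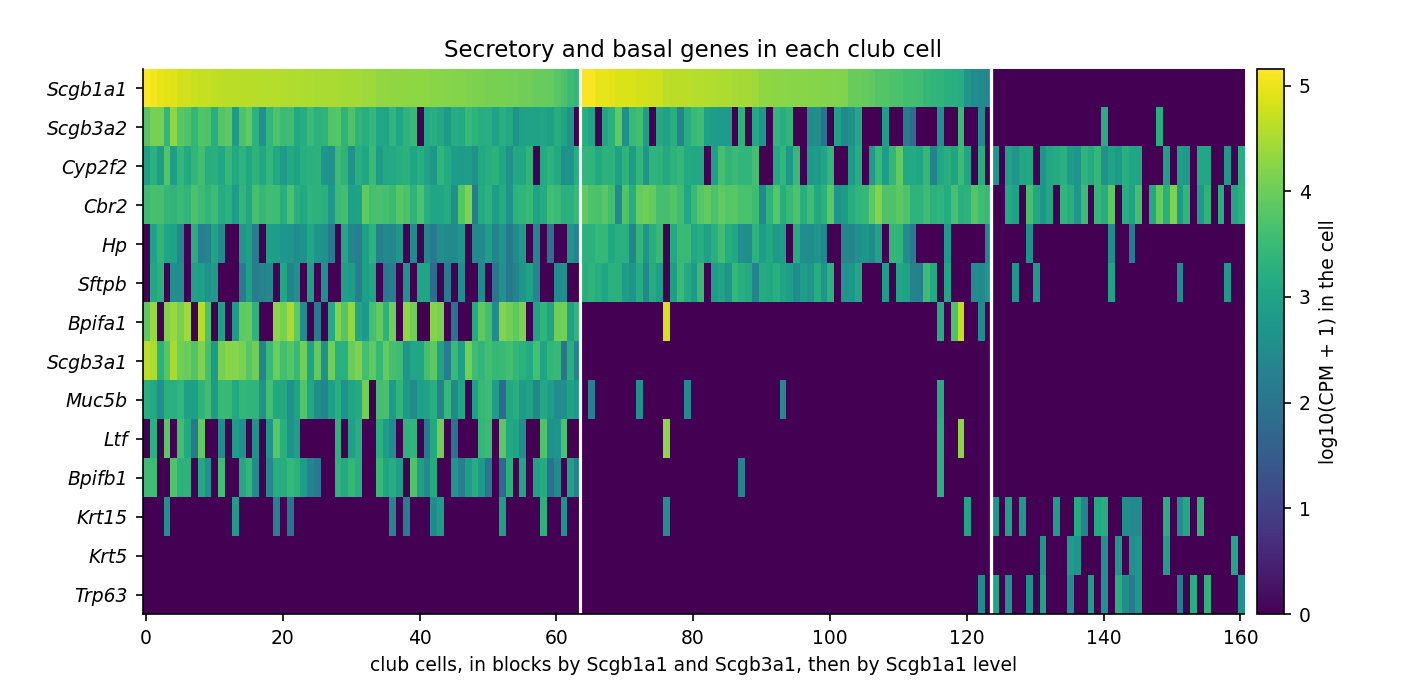
Each column is 1 of the 161 club cells and each row a gene, with colour for log10 of CPM + 1 in the cell, and white lines separate 64 cells with Scgb1a1 and Scgb3a1, 60 with Scgb1a1 alone and 37 without Scgb1a1. Bpifa1, Muc5b, Ltf and Bpifb1 lie mostly in the first set, Hp and Sftpb reach through the first 2, and Krt5 and Trp63 lie in the third apart from 1 cell.

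Club cell numbers were compared between groups as shares of all sorted cells. A lower share can come from fewer club cells or from more cells of other types, and these cannot be told apart here. With PDAC cells, 6-OHDA samples held 12 and 6 club cells (0.303% and 0.171% of all cells), BIBO3304 samples 11 and 9 (0.201% and 0.190%) and vehicle samples 10 and 13 (0.147% and 0.142%). Without PDAC cells, 6-OHDA samples held 10, 13 and 9 club cells (0.252%, 0.314% and 0.256%), BIBO3304 samples 3, 2 and 4 (0.0724%, 0.0514% and 0.0758%) and vehicle samples 11, 28 and 20 (0.137%, 0.445% and 0.264%). All 3 BIBO3304 samples without PDAC cells lay below all other samples, and the vehicle samples spread most.

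The share was lower after BIBO3304 without PDAC cells, at 0.0665 ± 0.0132% against 0.282 ± 0.155% after vehicle (SD, n = 3 each). The log2 difference on cell numbers was -2.23 (SE 0.459), with an adjusted p of 0.00216 over 22 types by edgeR's quasi-likelihood test, where 9.09% of types passed 0.05. The exact permutation test of the share gave p = 0.1, two-sided, which is the smallest that 3 against 3 samples allow. The call held in each of the 22 alternatives tried, and the difference was -1.86 without vehicle 2. As a share of airway cells, club cells were 5.47 ± 1.85% after BIBO3304 and 23.2 ± 8.78% after vehicle, and as a share of the 4 epithelial types 0.816 ± 0.155% and 5.6 ± 4.35%. Groups did not overlap in either (exact permutation p = 0.1 each, 0.622 adjusted over 14 comparisons). These counts rest on 9 club cells in the BIBO3304 group and 59 in the vehicle group.

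With PDAC cells the BIBO3304 share was 0.196 ± 0.00796% (n = 2), against 0.144 ± 0.00339% in vehicle-PDAC samples (n = 2), a log2 difference of 0.63 (SE 0.491, adjusted p = 0.532 by edgeR, 0% of types called). Against BIBO3304 without PDAC cells it was higher by 1.81 (SE 0.535, adjusted p = 0.0173 by edgeR, 27.3% of types called). The effect of BIBO3304 with PDAC cells minus that without was 2.86 (SE 0.681, adjusted p = 0.00826 by edgeR's interaction term, 13.6% of types called). Both calls were lost under several alternatives. With total cells in place of TMM scaling, the adjusted p by edgeR was 0.0578 for BIBO3304-PDAC against BIBO3304 and 0.0842 for the interaction. The exact permutation test gave p = 0.2 for BIBO3304-PDAC against BIBO3304, where the smallest possible is 0.1.

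The 6-OHDA comparisons did not pass the threshold. The share was 0.237 ± 0.0933% in 6-OHDA-PDAC samples (n = 2) and 0.144 ± 0.00339% in vehicle-PDAC samples, a log2 difference of 0.86 (SE 0.501, adjusted p = 0.234 by edgeR, 13.6% of types called). Without PDAC cells it was 0.274 ± 0.0345% after 6-OHDA and 0.282 ± 0.155% after vehicle (n = 3 each), with a log2 difference of -0.21 (SE 0.377, adjusted p = 0.735, 13.6% of types called). For 6-OHDA-PDAC against 6-OHDA it was 0.03 (SE 0.461, adjusted p = 0.962, 9.09% of types called), and the interaction was 1.07 (SE 0.626, adjusted p = 0.570, 0% of types called). For vehicle-PDAC against vehicle it was -1.04 (SE 0.422, adjusted p = 0.281, 0 of 22 types called by edgeR and 2 at an unadjusted p under 0.05). These comparisons have 2 or 3 samples in a group, and a p above the threshold does not show that the shares were equal.

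**Figure D5:**
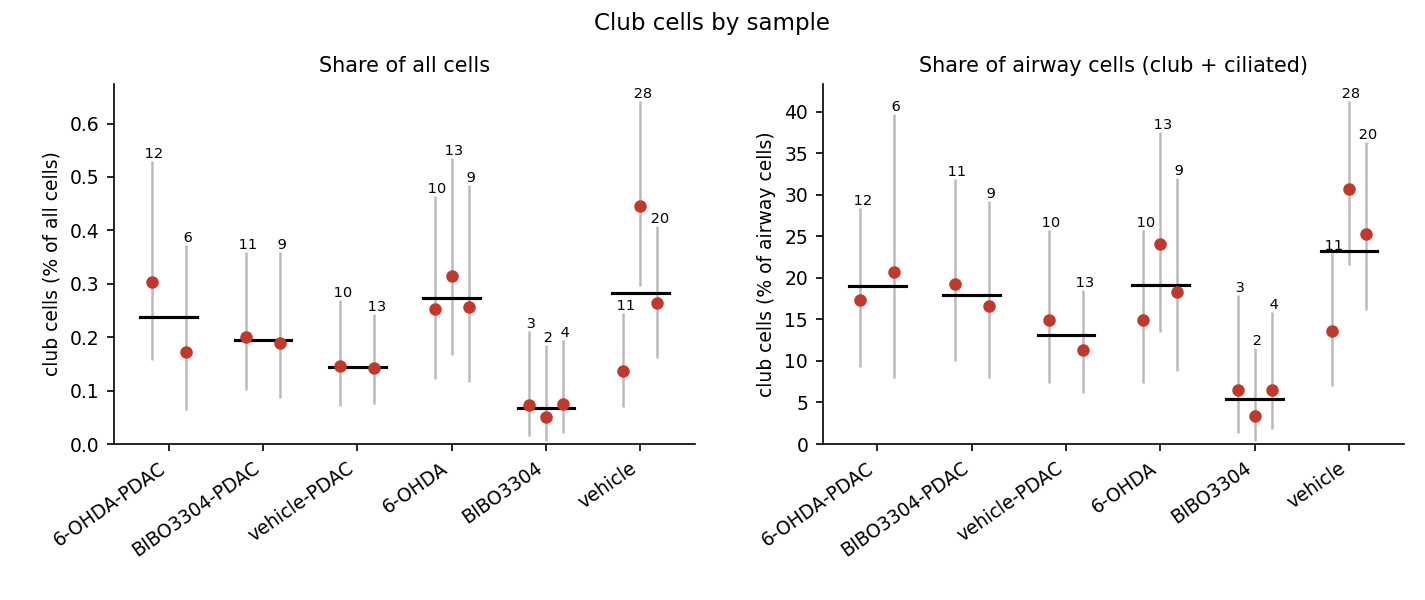
Points are the share of club cells in each sample, as percent of all cells (left) and of airway cells (right), grey lines are 95% exact binomial intervals, black lines are group means and the number of club cells stands above each line. The 3 BIBO3304 samples without PDAC cells lie at 0.0514% to 0.0758% of all cells, below every other sample.

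The 3 sets of cells were counted by group without a test. Of the 64 cells with Scgb1a1 and Scgb3a1, 7 came from 6-OHDA-PDAC, 12 from BIBO3304-PDAC, 10 from vehicle-PDAC, 14 from 6-OHDA, 3 from BIBO3304 and 18 from vehicle samples. Of the 60 cells with Scgb1a1 alone, 7, 5, 10, 12, 4 and 22 came from these groups in the same order. Of the 37 cells without Scgb1a1, 4, 3, 3, 6, 2 and 19 did, so that vehicle samples held 19 of them. Each of the 3 sets thus had cells in all 6 groups. In the BIBO3304 samples without PDAC cells, Scgb1a1 was at 4802, 20749 and 9435 CPM over 3, 2 and 4 cells.

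Club cells were the deepest of the epithelial types. The per-sample median was 4293 ± 1813 transcripts in club cells and 1870 ± 583 in ciliated cells, higher in 12 of 12 samples (exact paired sign-flip permutation test, adjusted p = 0.0022 over 9 comparisons). It was above that of AT2 cells, 2776 ± 898, in 11 of 12 samples (adjusted p = 0.00439 by the same exact test). In the 11 samples with enough AT1 cells it was 4383 ± 1874 in club cells and 1901 ± 635 in AT1 cells (adjusted p = 0.0022, exact). Genes per cell were 1250 ± 256 in club cells and 868 ± 144 in ciliated, 949 ± 240 in AT2 and 823 ± 194 in AT1 cells, with adjusted p of 0.0022, 0.00352 and 0.0022 by the same exact test. The mitochondrial share was 1.59 ± 0.742% in club cells, 1.97 ± 0.684% in ciliated cells (adjusted p = 0.0918 by the exact test), 2.26 ± 0.875% in AT2 cells (0.0445) and 2.80 ± 0.892% in AT1 cells (0.0138). The AT2 call was lost in 8 of 12 runs that left out 1 sample.

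A large part of the club transcripts belonged to 8 loci that hold at least 0.25% of the transcripts in every type, Rn18s-rs5, Cdk8, Il31ra, Cmss1, Lars2, Gm19951, Mir6236 and Gphn. Rn18s-rs5, a ribosomal RNA related sequence, held 24.6% of all club transcripts and Cdk8 23.6%. Together the 8 held 52.2 ± 8.80% of the transcripts of a club sample (n = 12), 34.9 ± 8.70% in ciliated cells, 43.4 ± 8.88% in AT2 cells and 27.8 ± 7.91% in AT1 cells, and the club share over all cells, 54.0%, was the highest of the 22 types, which began at 17.0%. CPM are shares of the total, so the CPM of the other genes depend on these loci. Without them the count of genes 2-fold higher than in each other type was 305 in place of 139, all 139 being among the 305, and the median log2 ratio of all genes was -0.0037 against ciliated, 0.04 against AT2 and 0.14 against AT1 cells, in place of -0.33, -0.11 and -0.25. With TMM scaling these medians were -0.20, -0.43 and 0.21, and 153 genes were higher, 125 of them among the 139. Club cells stayed deeper without them, at 2120 ± 607 transcripts against 1189 in ciliated cells (higher in 11 of 12 samples, exact permutation, adjusted p = 0.00293).

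The whole table held 38003 genes and 10003796 to 32580698 transcripts per sample, with a median of 2307 transcripts per cell. Club cells came from each of the 16 sublibraries, the technical splits of the pool, with 3 to 19 cells in each. Of the club barcodes 37 also occurred in a cell of another sublibrary, and 0 in another club cell.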

How the data were processed

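Whole lungs were dissociated, live cells were sorted and fixed, and RNA was barcoded by split-pool combinatorial indexing with oligo(dT) and random hexamer priming, per the labels' protocols. The authors deposited a matrix of transcript counts per gene and cell, and a table of cells with their sample, condition, subtype, count totals and mitochondrial percent. Seurat 5.3.0 and the mm39 build are named per the submitters' processing notes, while no aligner is named (not given in the sources used here). Each cell's deposited total equalled the matrix total in 99.0% of all cells and in 100% of club cells. The sequenced samples listed in the labels are sublibraries of 1 pool and belong to no group, so the 15 samples of the deposited cell table were the unit of replication. No cell filter was added, and doublets were not called here.

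Counts were summed per sample and type and scaled to CPM, and samples with at least 5 cells of a type entered the means. Genes with a mean of 10 CPM or more over the 4 epithelial types were compared, with a pseudocount of 10 CPM and a 2-fold line. How the deposited subtypes were assigned is not stated; they were treated as drawn from the genes of these cells, so no test was made between types. Cell numbers of 22 types were tested with edgeR's quasi-likelihood test (TMM, all 15 samples, Benjamini-Hochberg adjustment), shares with exact permutation tests, and depth and deposited mitochondrial percent with exact paired sign-flip permutation tests. Intervals are 95% Clopper-Pearson intervals and floors are 3 counts, and both cover counting error only. Scripts were tested on simulated data. Of 33 same-numbered sample pairs, deviations from group means correlated between -0.305 and 0.621 (median -0.0545). Such correlations, from groups of 2 or 3, cannot decide whether the numbers pair samples, and the main fits did not pair them.

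Genes were named if they were one of the 3 markers, one of the 20 largest ratios at 100 CPM or more in club cells, one of up to 6 list members highest in club cells or any receptor, one of the 10 most variable genes in at least 10% of thinned cells, or one of the 5 most like Scgb1a1. Genes outside this rule are list members past the 2-fold line or are given as chosen after their values were seen. A few genes that the rule names are not reported here. Members and lists were chosen with earlier results of these data known. The alternatives without the 8 loci and without cells lacking Scgb1a1, and the split of club cells by Scgb1a1 and Scgb3a1, were chosen after seeing the data. Promoter sequences are from RefSeq on GRCm38.p6, which is not the build of the files. Tools were Python 3.11.15, numpy 2.4.6, pandas 2.3.3, scipy 1.17.1, statsmodels 0.14.6, matplotlib 3.10.9, R 4.3.3, edgeR 4.0.16, limma 3.58.1 and DESeq2 1.42.0.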

Additional observations from a re-analysis of the deposited data

Results flagged for a closer look

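The effect of BIBO3304 on the club share differed between lungs with and without PDAC cells by 2.86 log2 units (SE 0.681, adjusted p = 0.00826 by edgeR's interaction term). With PDAC cells the log2 difference of BIBO3304-PDAC from vehicle-PDAC was 0.63, and without PDAC cells that of BIBO3304 from vehicle was -2.23. It was singled out because the difference between the 2 effects itself passed the test. The lowest arm held 3, 2 and 4 club cells, and leaving out 1 sample at a time gave 2.47 to 2.94, with adjusted p between 0.00536 and 0.176 by edgeR. The call was lost without 6-OHDA 3 (0.176), BIBO3304 3 (0.172), vehicle 3 (0.136), BIBO3304-PDAC 1 (0.116), BIBO3304-PDAC 2 (0.0616) or vehicle-PDAC 2 (0.0554).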

How the results depend on the processing

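The lower club share after BIBO3304 without PDAC cells passed the threshold under every alternative run, from -2.73 to -1.86 when 1 sample was left out. BIBO3304-PDAC against BIBO3304 kept its direction but lost its call with RLE scaling (1.75), total cells (1.51), DESeq2 (1.54) and without club cells with 2 or more other-class markers (1.86), and gave 1.66 to 1.87 with 1 sample out, where 6 omissions lost it. The BIBO3304 interaction lost its call with total cells (2.44), DESeq2 (2.48) and only the groups compared (2.97), and gave 2.47 to 2.94 with 1 sample out. 6-OHDA-PDAC against 6-OHDA, not called in any, changed sign with RLE (-0.14), total cells (-0.19), DESeq2 (-0.19), only the groups compared (-0.076) and without cells lacking Scgb1a1 (-0.014), and ran from -0.34 to 0.28 with 1 sample out. 6-OHDA against vehicle was 0.045 without cells lacking Scgb1a1 and ran from -0.66 to 0.15. With 1 sample out, 6-OHDA-PDAC against vehicle-PDAC ran from 0.49 to 1.12, BIBO3304-PDAC against vehicle-PDAC from 0.13 to 0.63, vehicle-PDAC against vehicle from -1.20 to -0.68 and the 6-OHDA interaction from 0.70 to 1.33. The causes were not tested.

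With the replicate number as a block the log2 differences were -0.19 for 6-OHDA and -2.21 for BIBO3304 against vehicle, 0.89 and 0.64 for the same drugs with PDAC cells, -1.0 for vehicle-PDAC against vehicle, 0.08 for 6-OHDA-PDAC against 6-OHDA, 1.85 for BIBO3304-PDAC against BIBO3304, and 1.08 and 2.85 for the interactions. The block changed no call.

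Genes higher in club cells than in each other type numbered 66 with a pseudocount of 50 CPM, 51 with a filter of 50 CPM and 305 without the 8 loci, and 133 to 148 with 1 sample out. Genes lower than in each numbered 439 with a pseudocount of 1 CPM, 11 with 50 CPM, 50 with a filter of 50 CPM, 229 without cells with other-class markers and 164 without vehicle samples, and 84 to 105 with 1 sample out. With at least 10 cells of both types a sample, calls were lost against AT2 cells (9 samples) for transcripts (a difference of 1123) and mitochondrial percent (-0.54). Against AT1 cells 5 samples were left, where the smallest exact p is 0.0625 and no call is possible, and the differences were 1783 transcripts, 224.9 genes and -1.01 mitochondrial percent. With means in place of medians the mitochondrial difference from ciliated cells was -0.52 and passed. With 1 sample out the mitochondrial differences ran from -0.50 to -0.26 against ciliated, -0.84 to -0.55 against AT2 and -1.43 to -1.0 against AT1 cells. Thinned to 2000 transcripts, and without the 8 loci, the shares of club cells were 86.8% and 84.4% for Scgb1a1, 70.2% and 67.2% for Scgb3a2, and 86.8% and 87.5% for Cyp2f2.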
